A study of Mus musculus with 12 samples.

Results

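The accessible regions of 10 inflammatory cytokine genes, Il1a, Il1b, Il1rn, Tnf, Il6, Il10, Il12b, Il18, Osm and Il15, were described in graft-derived macrophages and host microglia of the mouse brain. All peaks that the deposited annotation assigned to these genes were taken, which gave 120 of 115241 peaks. Of these, 61 of 60288 came from untreated mice, where 9 of the genes had a peak. The other 59, of 54953, came from mice given lipopolysaccharide (LPS), where all 10 genes had a peak. The assay was ATAC-seq, in which a transposase cuts accessible DNA and each sequenced end is counted as a tag. The 12 libraries came from 6 bone marrow chimeras of the C57BL/6J strain and WT genotype, made by irradiation with 950 cGy and transfer of donor marrow. From each mouse CD45.1 cells, which stem from the graft, and CD45.2 cells, the host microglia, were sorted. Both populations came from an irradiated animal, but marrow was transferred after irradiation, so that only the host microglia were irradiated themselves. In every comparison of CD45.1 with CD45.2, origin and irradiation of the cells therefore cannot be told apart. Mice 4, 5 and 6 were untreated. Mice 1, 2 and 3 received 2.5 mg/kg of LPS, a bacterial endotoxin, and were killed 12 h later, which gave 4 groups of 3 libraries. The chimeras were analysed 9 months after marrow transfer, while the labels, the same for all libraries, read 3.5 or 9 months.

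Macrophages sense bacterial endotoxin through Toll-like receptors and then activate NF-kappaB, AP-1 and interferon regulatory factors. These bind enhancers near cytokine genes, many of which are already held open by lineage factors such as PU.1 and C/EBP. IL-1 alpha and IL-1 beta, the products of Il1a and Il1b, signal through the same receptor, which the antagonist encoded by Il1rn blocks, and IL-18 belongs to the same family. TNF, IL-6 and oncostatin M drive inflammation, Il12b encodes the p40 subunit shared by IL-12 and IL-23, IL-15 sustains natural killer and memory T cells, and IL-10 restrains macrophage activation. ATAC-seq measures whether regions are accessible, not whether genes are transcribed.

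Sequences of 10 regions are shown so that the peaks described below can be seen with their motifs. For 8 genes the peak with the smallest adjusted p in any comparison was taken, among peaks of at most 300 bases outside exons that were at a promoter or past an adjusted p of 0.05. The Il6 region passed that p in 1 comparison, at under 2-fold. The Il1rn region at -3694 bp and the Il12b region at -9896 bp, of which the central 300 bases are shown, were added after their values were seen. Distances are from the annotated start site of the nearest transcript, negative upstream, so that peaks of 1 gene can be measured from different start sites. Capitals mark matches, on either strand, to AP-1 with a 1-base spacer (TGANTCA), AP-1 with a 2-base spacer (TGANNTCA), CEBP (TTGCNNAA), PU.1 (GAGGAAGT), NF-kappaB, or IRF, which was searched as GAAA, any 2 bases, and GAAA again. Matches of different motifs may overlap.
Il1a -10195 bp (chr2:129145845-129145961, mm9, + strand): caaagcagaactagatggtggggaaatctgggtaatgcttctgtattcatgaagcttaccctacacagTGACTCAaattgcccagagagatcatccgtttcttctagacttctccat
Il1b -9255 bp (chr2:129206052-129206209, mm9, + strand): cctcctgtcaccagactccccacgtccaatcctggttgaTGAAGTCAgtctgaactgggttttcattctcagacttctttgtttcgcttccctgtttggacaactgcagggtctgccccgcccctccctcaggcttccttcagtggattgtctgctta
Il1rn -3694 bp (chr2:24197010-24197225, mm9, + strand): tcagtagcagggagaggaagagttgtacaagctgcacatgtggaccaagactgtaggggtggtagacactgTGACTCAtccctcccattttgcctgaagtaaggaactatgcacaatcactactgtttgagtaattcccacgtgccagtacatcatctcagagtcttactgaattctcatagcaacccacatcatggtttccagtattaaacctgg
Tnf +1363 bp (chr17:35337513-35337665, mm9, + strand): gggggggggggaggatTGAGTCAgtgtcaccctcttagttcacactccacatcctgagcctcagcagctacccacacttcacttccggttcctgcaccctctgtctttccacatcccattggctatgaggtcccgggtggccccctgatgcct
Il6 +26923 bp (chr5:30366502-30366652, mm9, + strand): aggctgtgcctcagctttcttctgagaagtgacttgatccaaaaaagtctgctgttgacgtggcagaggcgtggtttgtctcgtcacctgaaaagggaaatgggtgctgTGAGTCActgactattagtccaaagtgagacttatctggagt
Osm -3952 bp (chr11:4132723-4132950, mm9, + strand): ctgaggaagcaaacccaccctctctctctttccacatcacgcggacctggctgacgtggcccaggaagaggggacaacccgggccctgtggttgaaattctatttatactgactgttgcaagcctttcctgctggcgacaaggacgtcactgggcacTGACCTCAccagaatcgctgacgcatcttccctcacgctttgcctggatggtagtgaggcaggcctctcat
Il12b -21947 bp (chr11:44191536-44191701, mm9, + strand): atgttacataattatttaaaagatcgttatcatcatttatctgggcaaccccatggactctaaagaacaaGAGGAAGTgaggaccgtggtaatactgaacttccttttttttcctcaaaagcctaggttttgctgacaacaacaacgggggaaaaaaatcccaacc
Il12b -9896 bp (chr11:44203520-44203819, mm9, + strand): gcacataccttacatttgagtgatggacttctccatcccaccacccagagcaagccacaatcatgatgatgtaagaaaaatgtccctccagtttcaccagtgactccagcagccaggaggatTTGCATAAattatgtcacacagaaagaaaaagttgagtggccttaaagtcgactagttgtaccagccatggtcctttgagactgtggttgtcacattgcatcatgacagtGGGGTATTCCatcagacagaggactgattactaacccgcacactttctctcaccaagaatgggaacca
Il15 +19088 bp (chr8:84907311-84907483, mm9, + strand): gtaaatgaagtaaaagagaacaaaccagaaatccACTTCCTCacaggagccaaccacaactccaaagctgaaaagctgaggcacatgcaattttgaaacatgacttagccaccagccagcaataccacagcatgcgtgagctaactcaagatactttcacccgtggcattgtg
Il10 -4333 bp (chr1:132912037-132912141, mm9, + strand): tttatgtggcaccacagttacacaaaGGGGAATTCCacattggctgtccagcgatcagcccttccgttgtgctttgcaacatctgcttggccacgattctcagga

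The shown regions of Il1a, Il1rn, Tnf and Il6 held an AP-1 match with the 1-base spacer, and those of Il1b and Osm a match with the 2-base spacer. A PU.1 match stood in the regions of Il12b at -21947 bp and Il15 at 19088 bp. An NF-kappaB match stood in the regions of Il10 at -4333 bp and Il12b at -9896 bp, the latter also with a CEBP match. Within 200 bases centred on each peak, NF-kappaB matches were found in 5 of the 61 untreated cytokine peaks (8.20%, against 3.36% of all untreated peaks). After LPS they were found in 11 of 59 (18.6%, against 4.32% of all LPS peaks). The AP-1 motif with the 1-base spacer was found in 11 untreated (18%, against 8.12%) and 13 LPS cytokine peaks (22%, against 13.4%). For AP-1 with the 2-base spacer the counts were 10 (16.4%, against 8.94%) and 7 (11.9%, against 9.65%). CEBP matches stood in 9 untreated (14.8%, against 9.82%) and 13 LPS cytokine peaks (22%, against 12.2%). IRF matches stood in 7 untreated (11.5%, against 3.86%) and 4 LPS cytokine peaks (6.78%, against 3.47%). PU.1 matches stood in 9 cytokine peaks of each table (14.8%, against 9.46%, and 15.3%, against 8.73%). A match describes letters in the sequence and shows no binding.

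Intergenic peaks were the largest class. Of the 61 untreated cytokine peaks 29 were intergenic, 15 intronic and 13 at a promoter, and of the 59 LPS peaks 32 were intergenic, 15 intronic and 9 at a promoter. Intergenic peaks were thus 47.5% and 54.2%, against 32.6% of all untreated and 33.2% of all LPS peaks. Il1b and Il10 had no promoter peak in either table. The nearest peak of Il1b was at -2417 bp in untreated mice and at -2372 bp after LPS, and that of Il10 at 1282 bp and 1259 bp, in an intron. Il1a, Il12b and Il15 had 10 untreated peaks each, Tnf had 3 and Il1rn had 1. Peaks were assigned to the nearest start site and need not act on the gene they are named for. For example, the Il10 peak at 33539 bp lies at the transcript end of a neighbouring gene, and the Il6 peaks 65 to 93 kb upstream lie in introns of a noncoding RNA gene.

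Overlapping peaks of both tables gave 75 regions, of which 42 were in both tables, 16 in the untreated table alone and 17 in the LPS table alone. In 13 regions each of the 12 libraries had a peak in its own list. The lists of the CD45.1 and CD45.2 untreated libraries covered 59 and 58 regions, and those of the CD45.1 and CD45.2 LPS libraries 46 and 51. In 4 regions no untreated library but at least 3 LPS libraries listed a peak. These were Il1rn at -3694 bp (6 of 6 LPS libraries), Il1a at -1811 bp (5 of 6), Il12b at -19121 bp (4 of 6) and Il10 at -22071 bp (3 of 6). In 10 regions no LPS library but at least 3 untreated libraries listed a peak. Each library was searched at its own depth, 8392878 to 9107770 total tags untreated and 2966364 to 6556595 after LPS. Fewer listed regions after LPS and lower depth therefore cannot be told apart.

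**Figure D1:**
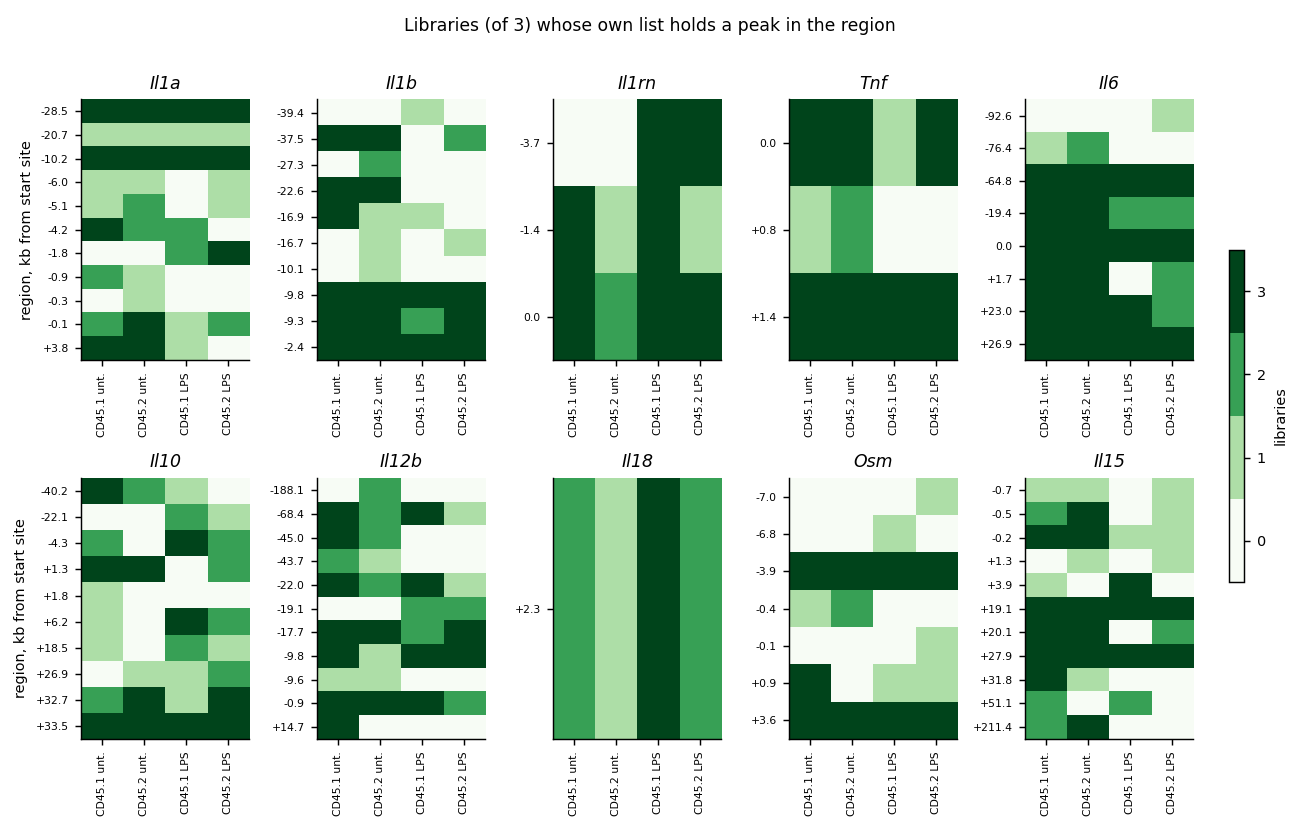
Heat map of the 75 regions of the 10 genes, with 1 row per region (distance from the start site in kb) and 1 column per group, coloured by the number of libraries (0 to 3) whose own list holds a peak there. The Il1rn region at -3694 bp is empty in both untreated columns and full in both LPS columns, and the 13 regions found in all 12 libraries are full in all columns.

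The sorted populations were described by promoter tags of marker genes, in tags per 1000000 tags in peaks. The study itself reported the listed graft markers in engrafted cells, and its ATAC-seq differed at Apoe, Ms4a7 and Sall1. Such markers are therefore no independent check of the sort. For markers of graft-derived macrophages (Apoe, Lyz2, Mrc1 and Ms4a7, of 6 listed) promoter tags summed to 94.0 to 101 in CD45.1 and 29.5 to 35.1 in CD45.2 untreated libraries. After LPS, where Cd38 also had a promoter peak, they summed to 63.5 to 93.3 and 39.1 to 44.5. Of 5 microglia markers P2ry12, Siglech and Tmem119 had a promoter peak and Sall1 and Slc2a5 had none. Their promoter sums overlapped between the populations, at 56.1 to 83.7 in CD45.1 and 79.5 to 85.1 in CD45.2 untreated libraries and at 46 to 66.8 and 39.1 to 63.1 after LPS. Over all its peaks Sall1, a transcription factor of microglia, was far lower in CD45.1, with 124, 187 and 23.2 normalised tags for CD45.1 cells and 988, 1115 and 1022 for CD45.2 cells at rest (log2 ratio -3.22 ± 0.76 SE, DESeq2 adjusted p = 0.000323). After LPS Sall1 held 22.1, 43.7 and 26.9 normalised tags for CD45.1 cells and 268, 295 and 232 for CD45.2 cells (log2 ratio -3.15 ± 0.25 SE, DESeq2 adjusted p = 4.33e-34). The other 4 microglia loci did not pass at rest or after LPS. Of the 6 graft loci, Apoe, Cd38, Mrc1 and Ms4a7 were higher in CD45.1 at rest and 2 did not pass. After LPS Apoe, Cd38 and Mrc1 were higher in CD45.1 and 3 did not pass.

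None of 8 T or NK cell markers had a promoter peak, nor at rest any of 8 neutrophil or 6 monocyte markers, but peaks elsewhere at some of these genes differed. After LPS the neutrophil markers Camp and S100a8 had promoter peaks, which summed to 11.1 to 34.2 in CD45.1 and 9.62 to 47.6 in CD45.2 libraries. The monocyte marker F13a1 also had a promoter peak after LPS, at 9.22 to 14.3 in CD45.1 and 5.13 to 12.0 in CD45.2 libraries. Neuron promoter tags (Map2 and Tubb3) stood at 16.4 to 26.8 in CD45.1 against 1.79 to 5.08 in CD45.2 at rest. After LPS they stood at 12.3 to 25.8 against 5.89 to 10.9. Promoter tags of Aldh1l1 (astrocyte) were 3.72 to 6.09 against 9.41 to 20.3 at rest, and of Ebf1 (B cell) 3.30 to 4.73 against 6.21 to 8.03. Those of Mbp and Olig1 (oligodendrocyte) overlapped at rest, at 23.7 to 30.6 against 18.7 to 24.1. Summed over all peaks of a gene, markers of other cell types went both ways at rest within 4 of 7 lists. At rest the neuron marker Map2 was higher in CD45.1, with 82.5, 82.5 and 112 normalised tags for CD45.1 cells and 6.48, 4.77 and 13.3 for CD45.2 cells (log2 ratio 3.45 ± 0.38 SE, DESeq2 adjusted p = 1.68e-17), while Rbfox3, Snap25 and Syt1 were lower and 2 of the 6 did not pass. Snap25 held 7.50, 16.7 and 4.22 normalised tags for CD45.1 cells and 113, 69.2 and 83.1 for CD45.2 cells (log2 ratio -3.18 ± 0.38 SE, DESeq2 adjusted p = 5.95e-15). The B cell marker Ms4a1 was higher in CD45.1 (log2 ratio 1.73 ± 0.25 SE, DESeq2 adjusted p = 5.39e-10) and Ebf1 lower (adjusted p = 0.0101 by DESeq2), of 3 tested. Of 4 tested neutrophil markers Retnlg was higher, with 80.6, 85.2 and 57 normalised tags for CD45.1 cells and 8.10, 1.59 and 3.32 for CD45.2 cells (log2 ratio 4.34 ± 0.51 SE, DESeq2 adjusted p = 2.85e-15), and S100a9 lower (log2 ratio -1.16 ± 0.42 SE, DESeq2 adjusted p = 0.0388). The monocyte marker F13a1, 1 of 3 tested, was higher (log2 ratio 1.31 ± 0.23 SE, DESeq2 adjusted p = 2.48e-07). Of 4 tested T or NK cell markers Cd3d and Ncr1 were higher and Lck lower. The astrocyte markers Aldh1l1 and Slc1a2 were lower, while Aqp4, Gfap and S100b did not pass, and of 4 tested oligodendrocyte markers Mog was lower. After LPS the marker loci of these 7 lists that passed were Map2 and Ms4a1, higher in CD45.1, and Snap25, Syt1 and Mog, lower. In summed normalised tags of CD45.1 against CD45.2, the neuron list stood at 187 to 224 against 247 to 294 at rest and 71.5 to 92.2 against 85.1 to 143 after LPS. The astrocyte list stood at 299.9 to 371 against 402 to 482 at rest and 204 to 221 against 233 to 296 after LPS, and the oligodendrocyte list at 963 to 1001 against 997 to 1020.0 at rest and 422 to 461 against 413 to 461 after LPS. For B cells the sums were 165 to 187 against 123 to 143 at rest and 48 to 68 against 39.3 to 48.8 after LPS, and for T or NK cells 185 to 218 against 191 to 203 at rest and 49.9 to 68 against 72.5 to 79.8 after LPS. Neutrophil markers summed to 108 to 132 against 84.3 to 105 at rest and 33.1 to 82.6 against 37 to 103 after LPS, and monocyte markers to 408 to 549 against 278 to 388 at rest and 364 to 570.4 against 358 to 454 after LPS. The sort took Ly6C/G- CD11b+ CD45lo cells. The part of these other cells in the cytokine values was not tested. Tags in merged peaks were 18.4% to 39.0% of a library, lowest in untreated CD45.2 mouse 4, and log2 tags of libraries of the same group correlated at r = 0.853 to 0.951 across peaks.

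Graft-derived and host cells were first compared at rest. In untreated mice CD45.1 cells were more accessible in 3 intronic regions of Il15, upstream of Il12b, Il10 and Il1b and at the promoter of Il1rn. They were less accessible at the promoter of Il1a, in the 3' untranslated region of Osm and at 33539 bp from Il10. In all, 10 of the 58 peaks with over 10 tags in at least 1 library passed an adjusted p of 0.05 (17.2%, against 14.9% of all peaks). Of these 7 were higher in CD45.1, against 8.54% of all peaks, and 3 higher in CD45.2, against 6.32%. By a stricter rule, over 4-fold with an adjusted p under 0.01, 1 of 58 was called (1.72%, against 6.43% of all peaks). It was higher in CD45.1, as were 3.78% of all peaks, while 2.65% of all peaks were higher in CD45.2. The share of cytokine peaks called was thus close to that of all peaks or lower. The median log2 ratio of CD45.1 over CD45.2 was 0.00 over the cytokine peaks and over all peaks. Groups did not overlap in 14 peaks higher in CD45.1 and 11 higher in CD45.2 of the 58, against 17.7% of all peaks in each direction. Of the 10 called peaks, Il10 at -4333 bp held over 10 tags in 2 CD45.1 libraries alone and Il15 at 3837 bp in 1. For both, the filter was met through the higher group. Of the 10 calls 3 held in every other fit and without each library in turn.

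After LPS fewer differences were called, as among all peaks (6.46%, against 14.9% at rest). LPS libraries held 2966364 to 6556595 total tags, against 8392878 to 9107770 in untreated libraries. Fewer calls after LPS and lower depth therefore cannot be told apart. CD45.1 cells were less accessible at the promoter of Tnf, at -28420 bp of Il1a and at 26864 bp of Il10, and more accessible at 3888 bp of Il15. These 4 of 54 tested peaks (7.41%, against 6.46% of all peaks) were 1 higher in CD45.1, against 4.08%, and 3 higher in CD45.2, against 2.38%. The share called was thus close to that of all peaks. None of the 4 calls held without each library in turn, and with mouse as a block only that of Il1a passed. DESeq2 called none by the stricter rule, against 2.97% of all peaks, while edgeR called 1. An unadjusted p under 0.05 was reached by 10 of the 54, against 15.5% of all peaks. The median log2 ratio was -0.10 over the cytokine peaks and -0.01 over all peaks. Groups did not overlap in 10 peaks higher in CD45.1, against 14.1% of all peaks, and 9 higher in CD45.2, against 13%. Il10 at 26864 bp held over 10 tags in CD45.2 libraries alone. Too few tags for a test, 0 to 9.5 in any library, were held by 3 untreated peaks (Il6 at -72 bp, Il15 at -121 bp and -485 bp) and 5 LPS peaks (Il1b at -16865 bp, Il6 at -92639 bp, Osm at -6957 bp and -6775 bp, Il15 at -417 bp).

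**Figure D2:**
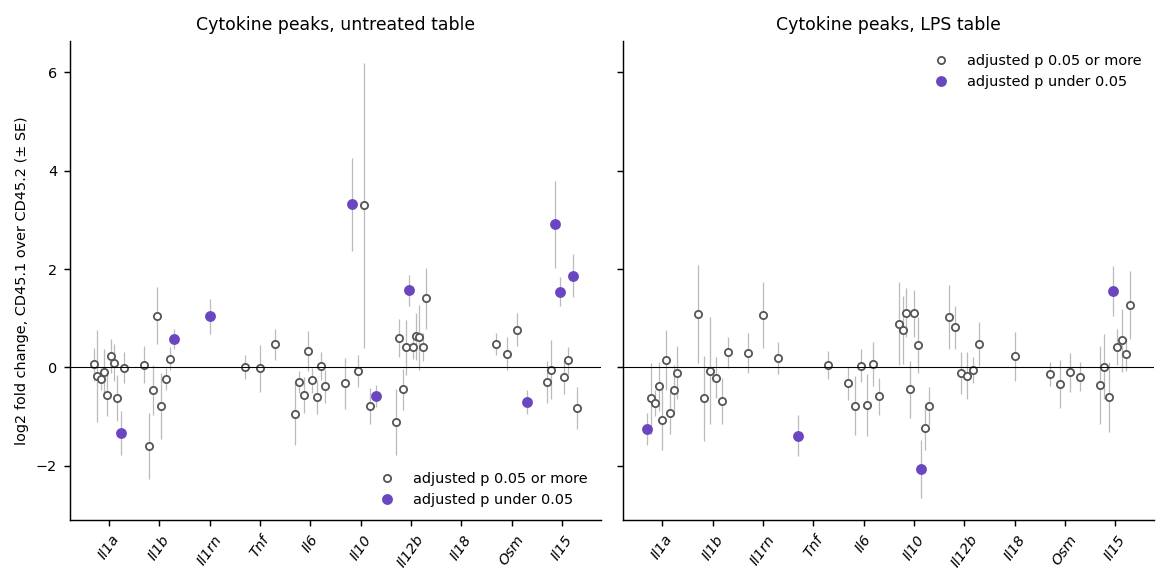
Log2 ratio of CD45.1 over CD45.2 (vertical axis, ± SE) of every tested cytokine peak, grouped by gene and ordered by distance from the start site, in untreated mice (left, 58 peaks) and after LPS (right, 54 peaks). Filled points mark the 10 and 4 peaks with an adjusted p under 0.05, and the points of most genes lie on both sides of 0.

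Tags were also summed over all peaks of a gene to give 1 value per locus. In untreated mice 3 of 9 loci (Il1rn, Il12b and Il15) were higher in CD45.1 and none was called higher in CD45.2 by DESeq2, where edgeR called Il6. An unadjusted p under 0.05 was reached by 4 of the 9, against 23.3% of all loci. Of all loci 14.8% were called, 7.35% higher in CD45.1 and 7.46% higher in CD45.2. After LPS the Il1a locus alone of 10 passed, higher in CD45.2, against 7.07% of all loci (4.08% higher in CD45.1 and 2.98% higher in CD45.2). Both sorts came from the same animals, and with mouse as a block only the Il12b locus kept its call among these 4.

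**Figure D3:**
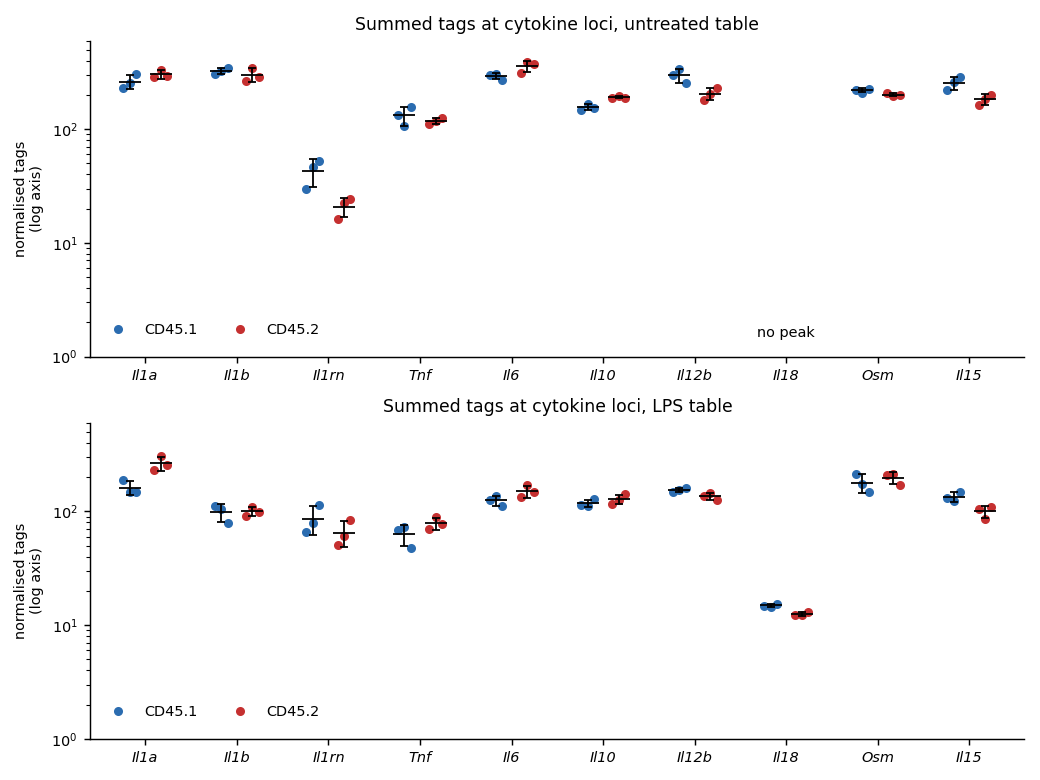
Normalised tags summed over all peaks of each gene (vertical axis, log scale) in each library, in untreated mice (top) and after LPS (bottom), with CD45.1 in blue and CD45.2 in red and black bars for the mean ± SD of 3 libraries. The CD45.1 points of Il1rn, Il12b and Il15 lie above the CD45.2 points in untreated mice, and those of Il1a lie below after LPS.

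For the response to LPS, peaks of both tables that overlapped each other by at least 50% were matched, which gave 38 cytokine peaks, and all 12 libraries were fitted on a common scale. In CD45.1 cells peaks of Osm, Il1a, Il15 and Il10 rose and peaks of Il1b, Tnf and Il12b fell. In CD45.2 cells peaks of Osm, Il1a, Il1rn, Il10, Tnf and Il15 rose. The Il12b region at -9896 bp had no partner by this matching. Matched by at least 1 base instead, it rose in CD45.1 (log2 ratio 2.53) and in CD45.2 (3.15), as given below. A change required an adjusted p under 0.05 and over 2-fold. By this rule 5 of 38 peaks rose and 3 fell in CD45.1 (21.1%), against 11.7% of all matched peaks (6.77% higher and 4.98% lower). In CD45.2 cells 8 rose (21.1%) and DESeq2 called none lower, against 11.4% of all matched peaks (7.68% higher and 3.7% lower). An unadjusted p under 0.05 was reached by 17 peaks in CD45.1, against 31.9% of all matched peaks, and by 16 in CD45.2, against 28.1%. EdgeR called 1 peak lower in CD45.2. Of the 8 called in CD45.2, Il10 at -4333 bp and Il15 at 3888 bp each held over 10 tags in 1 CD45.2 LPS library and in no untreated CD45.2 library. The median log2 ratio of LPS over untreated was -0.14 for CD45.1 and 0.22 for CD45.2, against 0.00 and -0.01 over all matched peaks. Peaks were called, merged and counted separately in each table, and LPS peaks were wider (median 174 bp, against 142 bp for their untreated partners). LPS and the way each table was built therefore cannot be told apart.

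The peaks at -4333 bp of Il10, 3888 bp of Il15 and -10237 bp of Il1a rose in both populations, which was 37.5% of the changed peaks of each. In CD45.2 those of Il10 and Il15 rest on few tags, as given above and below. Counted per base of peak, that of Il1a met the rule in neither population. Another 5 met the rule in CD45.1 alone and 5 in CD45.2 alone, and 25 met it in neither. Whether the response differed between the populations was tested by the interaction. DESeq2 called none of the 38 peaks, against 0.242% of all matched peaks (0.0178% with a larger and 0.224% with a smaller log2 ratio in CD45.1). An unadjusted p under 0.05 was reached by 5 peaks, against 5.08% of all matched peaks, and edgeR called 1. The Tnf promoter at 9 bp had the smallest p, with an interaction of -1.38 ± 0.42 SE, DESeq2 adjusted p = 0.189, on the log2 scale, and edgeR gave an adjusted p of 0.0483. The others were Il1a at -28420 bp (-1.28 ± 0.42 SE, DESeq2 adjusted p = 0.311) and Il15 at 19067 bp (-1.07 ± 0.41 SE, DESeq2 adjusted p = 0.611). Il10 at -4333 bp gave -2.19 ± 0.95 SE, DESeq2 adjusted p = 0.764 and Osm at -3952 bp -0.57 ± 0.29 SE, DESeq2 adjusted p = 0.901. All 5 were negative, that is, the log2 ratio after LPS was lower in CD45.1. By DESeq2, peaks that met the rule in 1 population alone were thus not shown to differ between the populations.

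**Figure D4:**
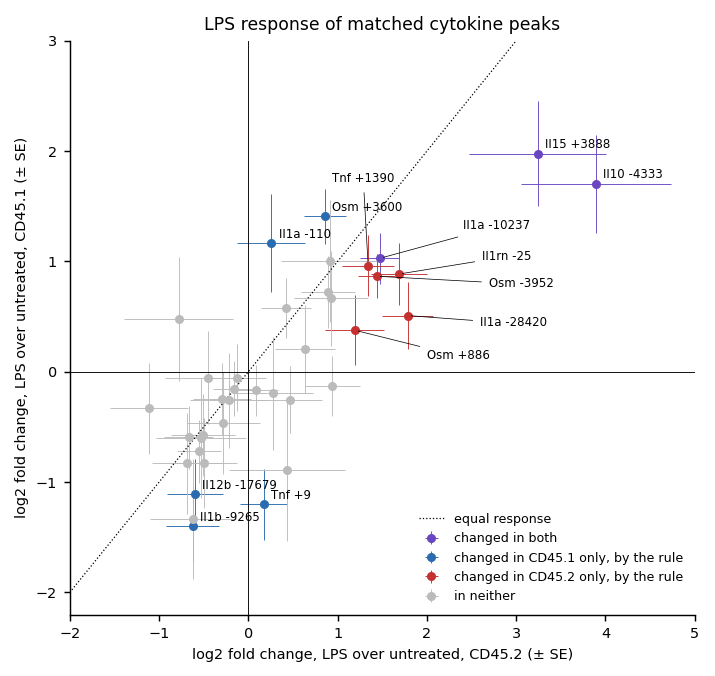
Log2 ratio of LPS over untreated of the 38 matched cytokine peaks in CD45.2 (horizontal axis) and CD45.1 (vertical axis), each ± SE, with the 13 peaks that met the rule in at least 1 population named by gene and distance in bp and the dotted line for equal change. Il10 at -4333 bp and Il15 at 3888 bp lie farthest to the right, and Tnf at 9 bp lies below 0 for CD45.1.

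Values of each gene follow in normalised tags, that is, tags divided by the size factor of the library, in mouse order within each group. Values of CD45.1 against CD45.2 are on the scale of the untreated or the LPS table. Values of LPS against untreated are on the common scale of the 12 libraries. Ratios are CD45.1 over CD45.2, or LPS over untreated where peaks rose, fell or were compared after LPS within 1 population.

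Il1a (chr2:129125346-129135708, minus strand) encodes IL-1 alpha, an alarmin released by damaged cells. In untreated mice Il1a summed to 229.7, 253 and 303 normalised tags for CD45.1 cells and 287, 334 and 293 for CD45.2 cells, with overlapping groups (log2 ratio -0.23 ± 0.14 SE, DESeq2 adjusted p = 0.354). After LPS Il1a summed to 188, 148 and 148 normalised tags for CD45.1 cells and 229, 307 and 256 for CD45.2 cells (log2 ratio -0.71 ± 0.19 SE, DESeq2 adjusted p = 0.00335). Each CD45.1 library was below each CD45.2 library after LPS. The adjusted p was 0.0894 with mouse as a block, 0.176 with total-tag scaling and 0.118 with the strongest peak alone. It was 0.0691 without CD45.1 mouse 2, 0.0663 without CD45.1 mouse 3 and 0.166 without CD45.2 mouse 2.

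The intergenic Il1a peak at -28420 bp held 34, 18.3 and 22.6 normalised tags for CD45.1 cells and 59.6, 55.8 and 66.5 for CD45.2 cells after LPS (log2 ratio -1.25 ± 0.32 SE, DESeq2 adjusted p = 0.00307). No CD45.1 library reached a CD45.2 library there. Its adjusted p was 0.0636 without CD45.1 mouse 2 and 0.0602 without CD45.2 mouse 3. At rest the same region, at -28496 bp, held 32.6, 31 and 56.6 normalised tags for CD45.1 cells and 34.4, 48.8 and 30.0 for CD45.2 cells, with overlapping groups (log2 ratio 0.07 ± 0.33 SE, DESeq2 adjusted p = 0.953). On the common scale the region rose in CD45.2 from 22.8, 33.2 and 20.3 to 85.8, 80.9 and 98 normalised tags (log2 ratio 1.78 ± 0.28 SE, DESeq2 adjusted p = 2.11e-08). CD45.1 cells had 21.8, 20.8 and 37.3 normalised tags untreated and 49.2, 27.2 and 33.6 after LPS, with overlap (log2 ratio 0.51 ± 0.31 SE, DESeq2 adjusted p = 0.237).

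The Il1a region about 10 kb upstream, whose AP-1 match is shown above, was listed in all 12 libraries. At rest it held 59.7, 71.2 and 63.2 normalised tags for CD45.1 cells and 78.7, 82.8 and 68.2 for CD45.2 cells (log2 ratio -0.24 ± 0.23 SE, DESeq2 adjusted p = 0.635). After LPS it held 69.5, 60.0 and 49.1 normalised tags for CD45.1 cells and 85.8, 131 and 77.8 for CD45.2 cells, without overlap but short of the threshold (log2 ratio -0.72 ± 0.26 SE, DESeq2 adjusted p = 0.0806). The region rose in CD45.1 from 39.8, 47.8 and 41.6 to 101, 89.4 and 72.7 normalised tags (log2 ratio 1.03 ± 0.23 SE, DESeq2 adjusted p = 0.000221). It also rose in CD45.2 from 52.2, 56.4 and 46.2 to 124, 189.5 and 115 normalised tags (log2 ratio 1.47 ± 0.22 SE, DESeq2 adjusted p = 2e-09). Every LPS library exceeded every untreated library of its population. Counted per base of peak, which allows for the wider LPS peak, the log2 ratio was 0.32, adjusted p = 0.348 for CD45.1 and 0.76, adjusted p = 0.00651 for CD45.2, and neither met the rule. In CD45.1 it was 0.97, adjusted p = 0.00494 without untreated mouse 4 and 0.90, adjusted p = 0.00869 without LPS mouse 1, both under 2-fold. With total-tag scaling it was 0.98, adjusted p = 0.054.

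The Il1a promoter peak at -51 bp was lower in CD45.1 at rest, with 9.33, 16.4 and 8.71 normalised tags for CD45.1 cells and 39.3, 27.1 and 23.5 for CD45.2 cells (log2 ratio -1.34 ± 0.44 SE, DESeq2 adjusted p = 0.0214). The mouse block gave an adjusted p of 0.0898, total-tag scaling gave 0.128, and 5 of 6 fits that left out 1 library lost the call (adjusted p 0.0217 to 0.148 over the 6). After LPS the promoter peak, at -110 bp, held 9.70, 10.4 and 15.1 normalised tags for CD45.1 cells and 14, 18.3 and 15.4 for CD45.2 cells (log2 ratio -0.45 ± 0.50 SE, DESeq2 adjusted p = 0.779). The promoter rose in CD45.1 from 6.22, 11 and 5.73 to 14.1, 15.5 and 22.4 normalised tags (log2 ratio 1.17 ± 0.44 SE, DESeq2 adjusted p = 0.0443). Per base of peak the ratio was 0.67, adjusted p = 0.285. Total-tag scaling gave an adjusted p of 0.158, and 9 of 12 fits without a library lost the call (adjusted p 0.0295 to 0.248 over the 12). CD45.2 cells had 26.1, 18.4 and 15.9 normalised tags untreated and 20.2, 26.5 and 22.8 after LPS at the promoter (log2 ratio 0.26 ± 0.38 SE, DESeq2 adjusted p = 0.706). The other 7 untreated Il1a peaks had log2 ratios of -0.62 to 0.23, and none passed. The Il1a peak at -1811 bp, listed after LPS alone, held 14.6, 7.83 and 20.8 normalised tags for CD45.1 cells and 24.5, 21.8 and 35.6 for CD45.2 cells, without overlap but short of the threshold (log2 ratio -0.92 ± 0.44 SE, DESeq2 adjusted p = 0.276).

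Il1b (chr2:129190306-129196875, minus strand) encodes IL-1 beta, which caspase-1 activates. In untreated mice Il1b summed to 304, 324 and 342 normalised tags for CD45.1 cells and 266, 347 and 289 for CD45.2 cells (log2 ratio 0.09 ± 0.13 SE, DESeq2 adjusted p = 0.799). After LPS Il1b summed to 111, 106 and 78.7 normalised tags for CD45.1 cells and 91.6, 110.1 and 98.8 for CD45.2 cells (log2 ratio -0.03 ± 0.22 SE, DESeq2 adjusted p = 0.971). Groups overlapped in both tables. The Il1b peak nearest to the start site, at -2417 bp, was higher in CD45.1 at rest, with 101, 118 and 131 normalised tags for CD45.1 cells and 65.5, 82 and 82.8 for CD45.2 cells (log2 ratio 0.58 ± 0.20 SE, DESeq2 adjusted p = 0.0355). Leaving out any 1 library ended the call (adjusted p 0.0549 to 0.203), and so did the mouse block (adjusted p = 0.122), total-tag scaling (0.634) and a filter at a mean of 20 tags (0.0645). After LPS this region, at -2372 bp, held 46.9, 62.6 and 33 normalised tags for CD45.1 cells and 31.5, 40.1 and 40.4 for CD45.2 cells (log2 ratio 0.31 ± 0.32 SE, DESeq2 adjusted p = 0.753). LPS against untreated gave no call there in CD45.1 (log2 ratio -0.17 ± 0.23 SE, DESeq2 adjusted p = 0.649) or CD45.2 (log2 ratio 0.08 ± 0.24 SE, DESeq2 adjusted p = 0.858).

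About 9 kb upstream of Il1b, the region shown above fell in CD45.1 from 46.1, 53.3 and 61.6 to 28.1, 15.5 and 15.4 normalised tags, with no overlap (log2 ratio -1.40 ± 0.33 SE, DESeq2 adjusted p = 0.000362). That call held in every other fit and without each library in turn (adjusted p 0.000348 to 0.0132). CD45.2 cells had 42.4, 59 and 41.8 normalised tags untreated and 35.3, 37.9 and 23.6 after LPS, also without overlap but short of the rule (log2 ratio -0.62 ± 0.30 SE, DESeq2 adjusted p = 0.142). CD45.1 and CD45.2 overlapped there at rest (log2 ratio 0.17 ± 0.23 SE, DESeq2 adjusted p = 0.773) and after LPS (log2 ratio -0.68 ± 0.47 SE, DESeq2 adjusted p = 0.556). The other 6 untreated Il1b peaks, at -37491 bp to -9804 bp, had log2 ratios of -1.60 to 1.05, and none passed.

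Il1rn (chr2:24192373-24207014, plus strand) encodes the IL-1 receptor antagonist, the inhibitor of both IL-1 cytokines. Its 1 untreated peak, at the promoter at -28 bp, was higher in CD45.1, with 29.8, 45.6 and 54.5 normalised tags for CD45.1 cells and 16.4, 21.7 and 23.5 for CD45.2 cells (log2 ratio 1.04 ± 0.36 SE, DESeq2 adjusted p = 0.0276). Fitted as a locus, the same peak gave 1.01 ± 0.36 SE, DESeq2 adjusted p = 0.0334. The groups did not overlap. Total-tag scaling gave an adjusted p of 0.239 for the peak and 0.453 for the locus. With mouse as a block the adjusted p was 0.0964 for the peak and 0.138 for the locus, and 5 of 6 fits without a library lost the call of the peak (adjusted p 0.0246 to 0.204) and of the locus (0.0276 to 0.211). After LPS the promoter peak, at -25 bp, held 35.6, 36.5 and 35.9 normalised tags for CD45.1 cells and 31.5, 27.9 and 34.4 for CD45.2 cells, without overlap (log2 ratio 0.19 ± 0.33 SE, DESeq2 adjusted p = 0.875). The promoter rose in CD45.2 from 10.9, 14.8 and 15.9 to 45.4, 40.4 and 50.8 normalised tags (log2 ratio 1.69 ± 0.31 SE, DESeq2 adjusted p = 3.18e-06), which held in every other fit and without each library in turn. CD45.1 cells went from 19.9, 30.6 and 35.8 to 51.6, 54.4 and 53.2 normalised tags, past the adjusted p but under 2-fold (log2 ratio 0.89 ± 0.28 SE, DESeq2 adjusted p = 0.0133).

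A further Il1rn region, at -3694 bp in the first intron of a longer Il1rn transcript, was listed in all 6 LPS libraries and in no untreated library. It held 21, 32.6 and 56.6 normalised tags for CD45.1 cells and 17.5, 27.9 and 41 for CD45.2 cells, with overlapping groups (log2 ratio 0.29 ± 0.40 SE, DESeq2 adjusted p = 0.836). It has no untreated value here. The remaining Il1rn peak, at -1373 bp, is measured from a start site farther upstream and lies upstream of the region at -3694 bp. That remaining peak held 8.09, 7.83 and 18.9 normalised tags for CD45.1 cells and 3.50, 5.23 and 7.12 for CD45.2 cells, without overlap but short of the threshold (log2 ratio 1.06 ± 0.67 SE, DESeq2 adjusted p = 0.492). Over its 3 peaks Il1rn summed to 66.3, 79.5 and 113 normalised tags for CD45.1 cells and 51.1, 61.2 and 83.3 for CD45.2 cells after LPS (log2 ratio 0.37 ± 0.27 SE, DESeq2 adjusted p = 0.553).

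Il18 (chr9:50383378-50389942, plus strand), whose product caspase-1 activates as it does IL-1 beta, had no peak in the untreated table. Its 1 LPS peak, at chr9:50375596-50375874, lies upstream of these gene coordinates. The deposited annotation places it in an intron, 2262 bp past the start site of a transcript that begins farther upstream. The peak held 14.6, 14.4 and 15.1 normalised tags for CD45.1 cells and 12.3, 12.2 and 13.1 for CD45.2 cells, each CD45.1 library above each CD45.2 library but short of the threshold (log2 ratio 0.22 ± 0.49 SE, DESeq2 adjusted p = 0.91). Fitted as a locus, the peak gave 0.24 ± 0.48 SE, DESeq2 adjusted p = 0.871.

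Tnf (chr17:35336326-35338952, minus strand) encodes tumour necrosis factor. In untreated mice Tnf summed to 134, 107 and 156 normalised tags for CD45.1 cells and 110.1, 119 and 126 for CD45.2 cells (log2 ratio 0.15 ± 0.19 SE, DESeq2 adjusted p = 0.76). After LPS Tnf summed to 68.8, 72.8 and 48 normalised tags for CD45.1 cells and 70.5, 89.1 and 76.8 for CD45.2 cells (log2 ratio -0.33 ± 0.25 SE, DESeq2 adjusted p = 0.573). Groups overlapped in both tables. The Tnf promoter peak, at -25 bp, held 56, 63 and 61 normalised tags for CD45.1 cells and 65.5, 55.7 and 58.4 for CD45.2 cells at rest (log2 ratio 0.02 ± 0.24 SE, DESeq2 adjusted p = 0.987). After LPS the promoter peak, at 9 bp, was lower in CD45.1, with 12.1, 14.4 and 9.44 normalised tags for CD45.1 cells and 28, 33.1 and 30.9 for CD45.2 cells (log2 ratio -1.38 ± 0.42 SE, DESeq2 adjusted p = 0.0223). Every CD45.1 library was below every CD45.2 library. Leaving out any 1 library ended the call (adjusted p 0.0549 to 0.227), and the adjusted p was 0.142 with the mouse block and 0.0603 with total-tag scaling.

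The Tnf promoter fell in CD45.1 from 37.3, 42.3 and 40.1 to 17.6, 21.4 and 14 normalised tags, with no overlap (log2 ratio -1.20 ± 0.32 SE, DESeq2 adjusted p = 0.00267). Per base of peak the ratio was -0.70, adjusted p = 0.107. CD45.2 cells had 43.5, 37.9 and 39.6 normalised tags untreated and 40.4, 48 and 45.5 after LPS at the promoter, with overlap (log2 ratio 0.17 ± 0.26 SE, DESeq2 adjusted p = 0.71). A peak at the Tnf promoter was listed in 1 of 3 CD45.1 and 3 of 3 CD45.2 LPS libraries.

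The intronic Tnf region with the AP-1 match shown above was listed in all 12 libraries. At 1363 bp it held 59.7, 31 and 80.6 normalised tags for CD45.1 cells and 36.1, 40.2 and 45.4 for CD45.2 cells at rest (log2 ratio 0.47 ± 0.32 SE, DESeq2 adjusted p = 0.419). At 1390 bp it held 55, 57.4 and 37.7 normalised tags for CD45.1 cells and 42, 54.9 and 46.3 for CD45.2 cells after LPS (log2 ratio 0.05 ± 0.29 SE, DESeq2 adjusted p = 0.972). The intron rose in CD45.2 from 23.9, 27.4 and 30.8 to 60.5, 79.6 and 68.3 normalised tags (log2 ratio 1.34 ± 0.29 SE, DESeq2 adjusted p = 8.4e-05). CD45.1 cells went from 39.8, 20.8 and 53 to 79.7, 85.5 and 56 normalised tags, past the adjusted p but under 2-fold (log2 ratio 0.96 ± 0.28 SE, DESeq2 adjusted p = 0.00563). In CD45.1 the promoter and the intron of Tnf thus had log2 ratios of opposite sign after LPS.

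Il6 (chr5:30339701-30346508, plus strand) encodes IL-6, an inducer of the acute phase response. In untreated mice Il6 summed to 297, 306 and 272 normalised tags for CD45.1 cells and 313, 391 and 372 for CD45.2 cells (log2 ratio -0.31 ± 0.13 SE, DESeq2 adjusted p = 0.0905). Each CD45.1 library was below each CD45.2 library, short of the threshold by DESeq2. The locus passed with edgeR (-0.31, adjusted p = 0.0487) and without CD45.2 mouse 4 (-0.39, adjusted p = 0.0413). After LPS Il6 summed to 125, 138 and 112 normalised tags for CD45.1 cells and 134, 169.5 and 148 for CD45.2 cells, with overlap (log2 ratio -0.28 ± 0.20 SE, DESeq2 adjusted p = 0.529). A promoter peak at -203 bp held 20.5, 21.9 and 29.4 normalised tags for CD45.1 cells and 22.9, 18.6 and 16.2 for CD45.2 cells at rest (log2 ratio 0.34 ± 0.40 SE, DESeq2 adjusted p = 0.731). A resting peak at 111 bp held 63.4, 51.1 and 52.3 normalised tags for CD45.1 cells and 52.4, 72.8 and 71.4 for CD45.2 cells. When peaks sharing at least 1 base were matched, the LPS peak at -5 bp was paired with the peak at 111 bp. After LPS the peak at -5 bp held 37.2, 33.9 and 30.2 normalised tags for CD45.1 cells and 28, 34.9 and 34.4 for CD45.2 cells (log2 ratio 0.04 ± 0.33 SE, DESeq2 adjusted p = 0.98). None of the 8 untreated or 6 LPS peaks of Il6 that were tested passed by DESeq2, with log2 ratios of -0.94 to 0.34 at rest and -0.78 to 0.07 after LPS.

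The Il6 region shown above, about 27 kb past the start site, held 28, 21 and 43.6 normalised tags for CD45.1 cells and 44.2, 37.2 and 39 for CD45.2 cells at rest (log2 ratio -0.38 ± 0.33 SE, DESeq2 adjusted p = 0.589). On the common scale CD45.2 cells went from 29.4, 25.3 and 26.4 to 47.9, 63.2 and 39.4 normalised tags, past the adjusted p but under 2-fold (log2 ratio 0.90 ± 0.30 SE, DESeq2 adjusted p = 0.0239). CD45.1 cells had 18.7, 14.1 and 28.7 normalised tags untreated and 32.8, 42.8 and 26.6 after LPS, with overlap (log2 ratio 0.72 ± 0.33 SE, DESeq2 adjusted p = 0.0979).

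Osm (chr11:4136423-4141029, plus strand) encodes oncostatin M, a cytokine of the IL-6 family. In untreated mice Osm summed to 223, 209 and 226 normalised tags for CD45.1 cells and 209, 194 and 201 for CD45.2 cells, without overlap but short of the threshold (log2 ratio 0.13 ± 0.14 SE, DESeq2 adjusted p = 0.709). After LPS Osm summed to 215, 173 and 147 normalised tags for CD45.1 cells and 209.6, 215 and 171 for CD45.2 cells, with overlap (log2 ratio -0.14 ± 0.19 SE, DESeq2 adjusted p = 0.801). The Osm peak in the 3' untranslated region, at 3613 bp, was lower in CD45.1 at rest, with 53.2, 42 and 45.7 normalised tags for CD45.1 cells and 81.9, 79 and 69 for CD45.2 cells (log2 ratio -0.70 ± 0.25 SE, DESeq2 adjusted p = 0.0339). That call ended without any 1 library (adjusted p 0.0664 to 0.207) and with the mouse block (adjusted p = 0.142) or total-tag scaling (0.396). The same region, at 3600 bp, rose in CD45.1 from 35.5, 28.2 and 30.1 to 101, 97.2 and 51.8 normalised tags (log2 ratio 1.41 ± 0.25 SE, DESeq2 adjusted p = 1.12e-06), which held in every other fit and without each library in turn. CD45.2 cells went from 54.4, 53.8 and 46.7 to 98.4, 106 and 77.9 normalised tags, past the adjusted p but under 2-fold (log2 ratio 0.86 ± 0.24 SE, DESeq2 adjusted p = 0.00374). After LPS the populations overlapped there, with 69.5, 65.2 and 34.9 normalised tags for CD45.1 cells and 68.3, 73.3 and 52.8 for CD45.2 cells (log2 ratio -0.19 ± 0.29 SE, DESeq2 adjusted p = 0.864).

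The upstream Osm region shown above, at -3952 bp, was listed in all 12 libraries. It rose in CD45.2 from 52.2, 36.9 and 47.3 to 131, 124 and 112 normalised tags (log2 ratio 1.44 ± 0.21 SE, DESeq2 adjusted p = 4.04e-10). Per base of peak that ratio was 0.75, adjusted p = 0.00406, under 2-fold. CD45.1 cells went from 61.6, 57.6 and 65.9 to 134, 99.1 and 101 normalised tags, also past the adjusted p and under 2-fold (log2 ratio 0.87 ± 0.20 SE, DESeq2 adjusted p = 0.000337). No LPS library overlapped the untreated libraries of its population at -3952 bp.

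An intronic Osm peak, at 886 bp, rose in CD45.2 from 21.8, 13.7 and 16.5 to 45.4, 45.5 and 28 normalised tags (log2 ratio 1.19 ± 0.33 SE, DESeq2 adjusted p = 0.00367). The adjusted p was 0.055 without untreated CD45.2 mouse 5 and 0.0609 without LPS CD45.2 mouse 2, and 0.0601 with total-tag scaling. CD45.1 cells had 26.1, 28.8 and 30.1 normalised tags untreated and 49.2, 31.1 and 28 after LPS, with overlap (log2 ratio 0.38 ± 0.31 SE, DESeq2 adjusted p = 0.417). The Osm promoter peak at -412 bp held 37.3, 34.7 and 41.4 normalised tags for CD45.1 cells and 19.7, 36.4 and 34.1 for CD45.2 cells at rest (log2 ratio 0.28 ± 0.33 SE, DESeq2 adjusted p = 0.724). After LPS the promoter peak, at -106 bp, held 14.6, 15.7 and 9.44 normalised tags for CD45.1 cells and 17.5, 20.1 and 13.1 for CD45.2 cells (log2 ratio -0.34 ± 0.49 SE, DESeq2 adjusted p = 0.842). Both promoter peaks had overlapping groups.

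Il12b (chr11:44213565-44227535, plus strand) encodes the p40 subunit. In untreated mice Il12b summed to 298, 341 and 253 normalised tags for CD45.1 cells and 181, 204 and 232 for CD45.2 cells, higher in CD45.1 without overlap (log2 ratio 0.52 ± 0.15 SE, DESeq2 adjusted p = 0.00491). The mouse block kept the call (adjusted p = 0.0475). It was lost with total-tag scaling (adjusted p = 1) and with the strongest peak alone (0.38, adjusted p = 0.509). It was also lost without CD45.1 mouse 5 (adjusted p = 0.0977), CD45.2 mouse 4 (0.0545) or CD45.2 mouse 5 (0.0551). After LPS Il12b summed to 148, 154 and 161 normalised tags for CD45.1 cells and 137, 144 and 126 for CD45.2 cells, again without overlap but short of the threshold (log2 ratio 0.19 ± 0.19 SE, DESeq2 adjusted p = 0.7).

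The intergenic Il12b peak at -21947 bp, with the PU.1 match, was higher in CD45.1 at rest, with 56.9, 69.4 and 59.9 normalised tags for CD45.1 cells and 14.7, 20.1 and 26 for CD45.2 cells (log2 ratio 1.57 ± 0.32 SE, DESeq2 adjusted p = 2.37e-05). That call held in every other fit and without each library in turn (adjusted p 0.000146 to 0.00292). After LPS the region, at -22000 bp, held 29.1, 22.2 and 18.9 normalised tags for CD45.1 cells and 12.3, 13.1 and 14.2 for CD45.2 cells, without overlap but short of the threshold (log2 ratio 0.82 ± 0.44 SE, DESeq2 adjusted p = 0.375). LPS against untreated gave no call in CD45.1 (log2 ratio -0.25 ± 0.30 SE, DESeq2 adjusted p = 0.597) or CD45.2 (log2 ratio 0.46 ± 0.36 SE, DESeq2 adjusted p = 0.42). The Il12b promoter peak, at -938 bp, held 53.2, 47.5 and 49 normalised tags for CD45.1 cells and 39.3, 33.3 and 39.8 for CD45.2 cells at rest, without overlap but short of the threshold (log2 ratio 0.42 ± 0.28 SE, DESeq2 adjusted p = 0.415). Its promoter peak after LPS, at -911 bp, held 17.8, 23.5 and 24.5 normalised tags for CD45.1 cells and 10.5, 20.9 and 14.2 for CD45.2 cells (log2 ratio 0.48 ± 0.44 SE, DESeq2 adjusted p = 0.712).

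The Il12b peak at -17679 bp fell in CD45.1 from 50.4, 58.2 and 40.1 to 28.1, 27.2 and 14 normalised tags (log2 ratio -1.11 ± 0.32 SE, DESeq2 adjusted p = 0.00516). Without LPS CD45.1 mouse 3 the ratio was -0.84, adjusted p = 0.0993, and without untreated CD45.1 mouse 5 -0.98, adjusted p = 0.0437, under 2-fold. Total-tag scaling gave an adjusted p of 0.0593. CD45.2 cells had 34.8, 36.9 and 40.7 normalised tags untreated and 35.3, 25.3 and 19.3 after LPS, with overlap (log2 ratio -0.60 ± 0.32 SE, DESeq2 adjusted p = 0.193).

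The Il12b region at -9896 bp, with NF-kappaB and CEBP matches, was 312 bp wide in the LPS table. It overlapped the 168 bp wide untreated peak at -9777 bp by less than matching required, and so had no partner. When peaks sharing at least 1 base were matched instead, CD45.1 cells went from 12, 20.5 and 10.9 to 85.7, 76.4 and 88.6 normalised tags (log2 ratio 2.53 ± 0.29 SE, DESeq2 adjusted p = 5.75e-16). CD45.2 cells went from 5.51, 8.55 and 13.4 to 99.2, 87.1 and 76 normalised tags (log2 ratio 3.15 ± 0.32 SE, DESeq2 adjusted p = 1.04e-20). Every LPS library was far above every untreated library, and the peaks compared differ in width as given above. With that matching 14.1% of all peaks changed in CD45.1 (8.49% higher and 5.64% lower) and 13.9% in CD45.2 (9.45% higher and 4.43% lower). Within the LPS table the region held 59.8, 52.2 and 60.4 normalised tags for CD45.1 cells and 70.1, 61.1 and 52.2 for CD45.2 cells, with overlapping populations (log2 ratio -0.06 ± 0.26 SE, DESeq2 adjusted p = 0.962).

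Il15 (chr8:84855536-84927121, minus strand) encodes IL-15, which the cell that makes it presents to lymphocytes. In untreated mice Il15 summed to 222, 258 and 289 normalised tags for CD45.1 cells and 162, 185 and 201 for CD45.2 cells, higher in CD45.1 without overlap (log2 ratio 0.48 ± 0.15 SE, DESeq2 adjusted p = 0.0148). The mouse block gave an adjusted p of 0.0611, and 4 of 6 fits without a library lost the call (adjusted p 0.015 to 0.131 over the 6), those without CD45.1 mouse 5 or 6 or CD45.2 mouse 4 or 5. The call was also lost with total-tag scaling (adjusted p = 1), and with the strongest peak alone the log2 ratio fell to 0.10, adjusted p = 0.965. After LPS Il15 summed to 131, 124 and 149 normalised tags for CD45.1 cells and 104, 86.5 and 109.5 for CD45.2 cells, without overlap but short of the threshold (log2 ratio 0.43 ± 0.21 SE, DESeq2 adjusted p = 0.246).

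At rest 3 intronic Il15 peaks were higher in CD45.1. The Il15 peak at 19088 bp, with the PU.1 match, held 61.6, 75.8 and 87.1 normalised tags for CD45.1 cells and 19.7, 23.2 and 32.5 for CD45.2 cells (log2 ratio 1.54 ± 0.30 SE, DESeq2 adjusted p = 7.68e-06). The Il15 peak at 31754 bp held 30.8, 37.4 and 34.8 normalised tags for CD45.1 cells and 6.55, 9.29 and 11.4 for CD45.2 cells (log2 ratio 1.87 ± 0.44 SE, DESeq2 adjusted p = 0.000342). Both calls held in every other fit and without each library in turn, and neither peak had overlapping groups. The Il15 peak at 3837 bp held 8.40, 7.30 and 26.1 normalised tags for CD45.1 cells and 0, 1.55 and 3.25 for CD45.2 cells (log2 ratio 2.91 ± 0.89 SE, DESeq2 adjusted p = 0.0103). It rests on 41 against 6 tags, a ratio of 6.94 with an exact 95% counting interval of 2.93 to 20.0, which covers counting error only, and among untreated lists the peak was in that of 1 CD45.1 library. Without CD45.2 mouse 5 its adjusted p was 0.0997, and it was not tested with a filter at a mean of 20 tags. The other 5 untreated Il15 peaks had log2 ratios of -0.83 to 0.14, and none passed.

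After LPS the Il15 peak at 3888 bp was also higher in CD45.1, with 20.2, 22.2 and 30.2 normalised tags for CD45.1 cells and 3.50, 6.98 and 11.9 for CD45.2 cells (log2 ratio 1.56 ± 0.51 SE, DESeq2 adjusted p = 0.0383). That call ended without any 1 library (adjusted p 0.0565 to 0.295) and with the mouse block (adjusted p = 0.105). The peak rose in CD45.1 from 5.60, 4.90 and 17.2 to 29.3, 33 and 44.8 normalised tags (log2 ratio 1.98 ± 0.48 SE, DESeq2 adjusted p = 0.000595). It also rose in CD45.2 from 0, 1.05 and 2.20 to 5.04, 10.1 and 17.5 normalised tags (log2 ratio 3.24 ± 0.77 SE, DESeq2 adjusted p = 0.000452). The change in CD45.2 rests on 30 against 6 tags, a ratio of 9.95 with an exact 95% counting interval of 4.07 to 29.2. Both changes held without each library in turn and in the other fits, except that the peak was below the filter at a mean of 20 tags. No LPS library overlapped the untreated libraries of its population. A peak was listed there in 3 of 3 CD45.1 LPS libraries and in no CD45.2 library, so that the CD45.2 values rest on a region called in CD45.1 cells.

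The Il15 intron at 19067 bp held 31.5, 26.1 and 34 normalised tags for CD45.1 cells and 21, 26.2 and 21.4 for CD45.2 cells after LPS, with overlap (log2 ratio 0.42 ± 0.37 SE, DESeq2 adjusted p = 0.686). CD45.2 cells went from 13.1, 15.8 and 22 to 30.3, 37.9 and 31.5 normalised tags, past the adjusted p but under 2-fold (log2 ratio 0.94 ± 0.31 SE, DESeq2 adjusted p = 0.0204). CD45.1 cells had 41.1, 50.8 and 57.3 normalised tags untreated and 45.7, 38.9 and 50.4 after LPS there, with overlap (log2 ratio -0.13 ± 0.27 SE, DESeq2 adjusted p = 0.779). The tested Il15 promoter peak nearest to the start site, at -279 bp, had overlapping groups at rest, with 8.40, 6.39 and 15.2 normalised tags for CD45.1 cells and 13.1, 9.29 and 8.93 for CD45.2 cells (log2 ratio -0.04 ± 0.59 SE, DESeq2 adjusted p = 0.985). After LPS the promoter peak, at -245 bp, held 12.9, 7.83 and 5.66 normalised tags for CD45.1 cells and 10.5, 3.49 and 12.5 for CD45.2 cells (log2 ratio 0.02 ± 0.66 SE, DESeq2 adjusted p = 0.996).

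Il10 (chr1:132916422-132921551, plus strand) encodes the anti-inflammatory cytokine of the group. It lies 7.04 Mb from Ptprc, the gene whose alleles define CD45.1 and CD45.2, so that at Il10 the origin of the cells and sequence carried along with the Ptprc allele cannot be told apart. In untreated mice Il10 summed to 148, 167 and 154 normalised tags for CD45.1 cells and 188, 196 and 189.5 for CD45.2 cells, without overlap but short of the threshold (log2 ratio -0.29 ± 0.15 SE, DESeq2 adjusted p = 0.233). After LPS Il10 summed to 115, 111 and 128 normalised tags for CD45.1 cells and 116, 126 and 142 for CD45.2 cells, with overlap (log2 ratio -0.13 ± 0.20 SE, DESeq2 adjusted p = 0.827). The intergenic Il10 peak at -4333 bp, the 1 cytokine peak called by the stricter rule, held 10.3, 8.21 and 21.8 normalised tags for CD45.1 cells and 3.28, 1.55 and 0 for CD45.2 cells (log2 ratio 3.31 ± 0.95 SE, DESeq2 adjusted p = 0.00541). It rests on 40 against 4 tags, a ratio of 10.2 with an exact 95% counting interval of 3.67 to 39.1, which covers counting error only. It was below the filter at a mean of 20 tags and so was not tested there. Its adjusted p passed 0.05 but not 0.01 with the mouse block (0.0384). It was 0.0904 without CD45.1 mouse 6, 0.0604 without CD45.2 mouse 5 and 0.0915 without CD45.2 mouse 6.

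The Il10 peak at 33539 bp was lower in CD45.1 at rest, with 70.9, 74.8 and 54.5 normalised tags for CD45.1 cells and 108, 102 and 92.5 for CD45.2 cells (log2 ratio -0.58 ± 0.22 SE, DESeq2 adjusted p = 0.0484). Leaving out any 1 library ended that call (adjusted p 0.0775 to 0.292), as did the mouse block (adjusted p = 0.159) and total-tag scaling (0.576). After LPS the Il10 peak at 26864 bp was lower in CD45.1, with 3.23, 3.91 and 7.55 normalised tags for CD45.1 cells and 15.8, 23.5 and 21.4 for CD45.2 cells and no overlap (log2 ratio -2.07 ± 0.59 SE, DESeq2 adjusted p = 0.0111). The mouse block gave an adjusted p of 0.0748, and the call was lost without CD45.1 mouse 1 or 2 or CD45.2 mouse 2 or 3 (adjusted p 0.0235 to 0.174 over the 6 fits without a library). The other Il10 peaks did not pass at rest or after LPS, among them the intronic peaks nearest to the start site (log2 ratio -0.07 ± 0.32 SE, DESeq2 adjusted p = 0.946 at rest and log2 ratio -0.45 ± 0.58 SE, DESeq2 adjusted p = 0.823 after LPS).

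After LPS the Il10 peak at -4333 bp held 18.6, 20.9 and 18.9 normalised tags for CD45.1 cells and 10.5, 8.72 and 8.31 for CD45.2 cells, without overlap but short of the threshold (log2 ratio 1.11 ± 0.50 SE, DESeq2 adjusted p = 0.212). It rose in CD45.1 from 6.85, 5.51 and 14.3 to 27, 31.1 and 28 normalised tags (log2 ratio 1.70 ± 0.45 SE, DESeq2 adjusted p = 0.00183). It also rose in CD45.2 from 2.18, 1.05 and 0 to 15.1, 12.6 and 12.3 normalised tags (log2 ratio 3.89 ± 0.84 SE, DESeq2 adjusted p = 8.33e-05), which rests on 30 against 4 tags, a ratio of 14.9 with an exact 95% counting interval of 5.26 to 58.3. Both changes held without each library in turn and in the other fits that tested the peak, which did not include the filter at a mean of 20 tags.

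**Figure D5:**
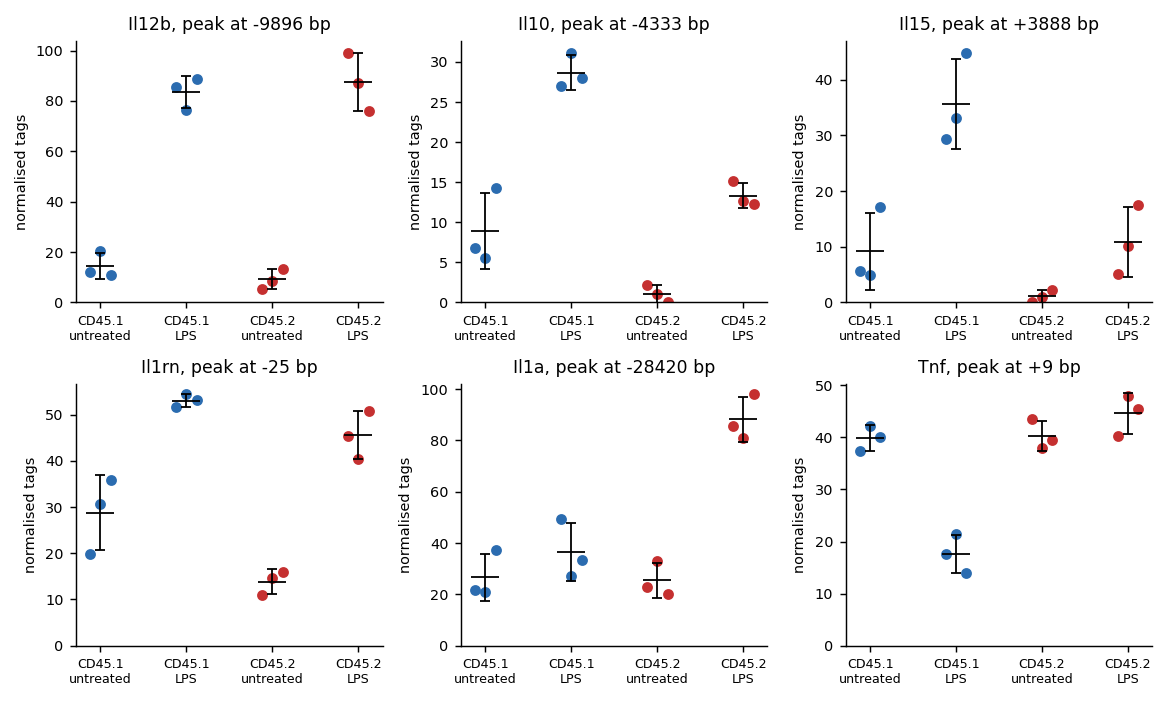
Normalised tags (vertical axis, from 0, common scale of the 12 libraries) of 6 cytokine peaks in each library, with CD45.1 in blue, CD45.2 in red and black bars for the mean ± SD of 3 libraries. Il12b at -9896 bp, matched by at least 1 base, Il10 at -4333 bp and Il15 at 3888 bp are higher in all LPS libraries of both populations, Il1a at -28420 bp is higher after LPS in CD45.2, and Tnf at 9 bp is lower after LPS in CD45.1.

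Other genes of the pathway were summed per locus in the same way. Of 58 other cytokine genes listed, 35 were tested at rest. In CD45.1 cells 7 were higher and 3 lower, against 7.35% and 7.46% of all loci, 25 did not pass, and the median log2 ratio was 0.03. Il12a, whose p35 product pairs with p40 in IL-12, held 132 ± 9.01 normalised tags for CD45.1 cells and 328 ± 10.1 for CD45.2 cells (mean ± SD, n = 3) (log2 ratio -1.32 ± 0.14 SE, DESeq2 adjusted p = 1.48e-18). By DESeq2 the loci of the IL-12 subunits thus differed in opposite directions at rest, Il12b higher and Il12a lower in CD45.1. The Il12b call was lost with total-tag scaling, with the strongest peak alone and in 3 of 6 fits without a library. After LPS Il12b did not pass. Csf1, a growth factor of macrophages, was also lower in CD45.1 (log2 ratio -0.89 ± 0.14 SE, DESeq2 adjusted p = 5.62e-09). Il4, a cytokine of type 2 immunity, was higher, with 40.3 ± 7.61 normalised tags for CD45.1 cells and 5.41 ± 0.929 for CD45.2 cells (mean ± SD, n = 3) (log2 ratio 2.94 ± 0.50 SE, DESeq2 adjusted p = 1.04e-07). Tnfsf4, which encodes OX40 ligand, was higher as well (log2 ratio 1.67 ± 0.34 SE, DESeq2 adjusted p = 1.6e-05). After LPS 38 were tested, of which 3 were higher and 2 lower in CD45.1, against 4.08% and 2.98% of all loci, and 33 did not pass, with a median of 0.15. Il22 was higher (log2 ratio 2.09 ± 0.41 SE, DESeq2 adjusted p = 2.62e-05), as were Tnfsf4 (log2 ratio 1.87 ± 0.39 SE, DESeq2 adjusted p = 9.53e-05) and Il2 (log2 ratio 1.06 ± 0.30 SE, DESeq2 adjusted p = 0.00833). Il12a was again lower, with 49.1 ± 8.90 normalised tags for CD45.1 cells and 117 ± 21.9 for CD45.2 cells (mean ± SD, n = 3) (log2 ratio -1.24 ± 0.25 SE, DESeq2 adjusted p = 3.6e-05).

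All 28 listed genes of cytokine processing and control were tested in both tables. At rest 6 were higher and 1 lower in CD45.1, against 7.35% and 7.46% of all loci, 21 did not pass, and the median log2 ratio was 0.16. Irak3, an inhibitor of Toll-like receptor signalling, held 289 ± 18.9 normalised tags for CD45.1 cells and 150.2 ± 10.5 for CD45.2 cells (mean ± SD, n = 3) (log2 ratio 0.95 ± 0.14 SE, DESeq2 adjusted p = 1.44e-09). Nlrc4, an inflammasome sensor, was higher in CD45.1 (log2 ratio 0.80 ± 0.17 SE, DESeq2 adjusted p = 3.92e-05). Nfkbiz, which encodes a nuclear regulator of NF-kappaB, was higher as well (log2 ratio 0.43 ± 0.09 SE, DESeq2 adjusted p = 9.43e-05). Casp1, the protease that activates IL-1 beta and IL-18, held 121 ± 12.6 normalised tags for CD45.1 cells and 67.1 ± 4.83 for CD45.2 cells (mean ± SD, n = 3) (log2 ratio 0.84 ± 0.20 SE, DESeq2 adjusted p = 0.000555). After LPS 1 of the 28 passed, Nlrc4, higher in CD45.1 (log2 ratio 0.76 ± 0.21 SE, DESeq2 adjusted p = 0.00689), against 7.07% of all loci, and the median was 0.07.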

How the data were processed

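ATAC-seq tags of 12 libraries were analysed. The authors deposited tags per merged peak without normalization, in steps of 0.5 tag, which were treated as estimated counts. Per the file headers, the authors called peaks per library with HOMER, merged the lists of each treatment and annotated them on mm9. The submitters' processing notes also name bcl2fastq 2.17.1.14, Bowtie2 and Picard 1.108. Whether read ends were shifted for the transposase is not given in the sources used here. Of the peak lists the authors deposited per library, positions were used and the score was not tested.

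Tags were rounded to whole numbers and peaks with over 10 tags in at least 1 library were kept. DESeq2 1.42.0 (R 4.3.3) was used with median-of-ratios size factors, without a block, and p-values were adjusted over all features (Benjamini-Hochberg), with any that DESeq2 left undefined for low tags kept so. Of the stricter rule the fold is that of the study and the adjustment of its p was chosen here. Peaks of both tables were matched one to one by at least 50% reciprocal overlap and fitted with population, treatment and their interaction. Alternatives were edgeR 4.0.16, TMM factors, total-tag scaling, other filters, tags per base, another matching rule, the strongest peak alone, mouse as a block and leaving out each library. The fits were tested on simulated data with large changes planted at features with a mean over 20 tags, which does not cover smaller changes or fewer tags. By the series design both sorts with 1 number came from the same mouse. Deviations of same-mouse libraries correlated at 0.081, 0.082 and 0.087 in untreated mice and at -0.066, 0.061 and 0.149 after LPS. Motifs and sequences were read with Python 3.11.15 from the mouse genome of the same build. Libraries held 2966364 to 9107770 total tags, and tags of duplicated fragments are not independent.

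Genes, lists and regions were chosen with earlier results of these data known. Given in every library were the locus and nearest tested promoter peak of each gene and each peak past an adjusted p of 0.05 in a contrast. From each list up to 4 loci with the smallest adjusted p were named. A further microglia marker of the list is not reported here.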

Additional observations from a re-analysis of the deposited data

Results flagged for a closer look

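The Il1rn region at -1373 bp was flagged because a signal appeared in files that the comparisons did not use. The merged untreated table has no peak there, yet the separate lists of 4 untreated libraries, all 3 of CD45.1 and 1 of CD45.2, held a peak overlapping it. After LPS the region was in the lists of all 3 CD45.1 libraries and 1 CD45.2 library, and in the merged table. It has no untreated tag value, so that graft-derived and host cells could not be compared there before LPS, and why the merged table lacks it was not tested.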

How the results depend on the processing

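Under the alternatives tried, refits of single named peaks and loci kept their side of the threshold in 557 cases, lost it in 116 and gained it in 3, and none reversed. In untreated mice, the 7 peaks higher in CD45.1 became 11 with edgeR, 4 with a mean of at least 20 tags and 3 to 6 without 1 library. The 3 peaks higher in CD45.2 became 6 with edgeR, 0 with total-tag scaling, 0 with the mouse block and 0 to 1 without 1 library. The 1 peak called by the stricter rule became 2 with edgeR, 0 with total-tag scaling, the higher filter or the mouse block, and 0 to 1 without 1 library. After LPS, the 1 peak higher in CD45.1 became 3 with edgeR, 0 with the higher filter, 0 with the mouse block and 0 without any 1 library, and the 3 higher in CD45.2 became 5 with edgeR, 1 with the mouse block and 0 to 2 without 1 library. By the stricter rule edgeR called 1 LPS peak higher in CD45.2 where DESeq2 called 0. The 3 untreated loci higher in CD45.1 became 0 with total-tag scaling, 1 with the mouse block, 1 with the strongest peak alone and 0 to 3 without 1 library, and loci higher in CD45.2 went from 0 to 1 with edgeR, 1 with the strongest peak alone and 0 to 1 without 1 library. The 1 LPS locus higher in CD45.2 became 0 with total-tag scaling, the mouse block or the strongest peak alone, and 0 to 1 without 1 library.

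After LPS against untreated, the 5 peaks higher in CD45.1 became 3 with total-tag scaling and 2 with the higher filter, and the 0 peaks lower in CD45.2 became 1 with edgeR and 1 with an overlap of at least 1 base. EdgeR called 1 interaction where DESeq2 called 0. The 9 untreated peaks with a CEBP match became 4 when the whole peak replaced the 200 bases, which searches fewer bases in narrow peaks. Total-tag scaling moved the median of all features by 0.14 for LPS peaks, 0.13 for LPS loci, -0.14 for LPS against untreated in CD45.2 and 0.10 for the interaction. The cause of the other changes was not tested. With mouse as a replicate block, the adjusted p passed for 5 untreated peaks, 1 LPS peak and 1 untreated locus, as given above, and the block changed no other call. No paired analysis was possible because the mice differ between treatments for LPS against untreated, and the planned block was not run there, while the interaction with a block called 0 peaks. Without CD45.2 mouse 6 the Il15 peak at +3837 bp got no adjusted p. Peaks under 10 tags in a library limit what could be detected.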

Other observations

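Listed peaks outside the merged untreated table also occurred at other cytokine regions. The Il18 intron at +2262 bp, absent from that table, was listed in 2 CD45.1 and 1 CD45.2 untreated libraries, so the lack of an untreated Il18 value does not show that the region was closed. The Il15 region at +51070 bp was listed in 2 CD45.1 libraries and no CD45.2 library of each treatment, and the Il10 regions at +6161 bp and +18462 bp in 1 CD45.1 and no CD45.2 untreated library each. The other way round, Il1b at -16681 bp, Il10 at +26864 bp and Il15 at +1281 bp were each listed in 1 CD45.2 and no CD45.1 untreated library. None of these gives a comparison between groups.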
